A study of Mus musculus with 52 samples.

Results

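Glycolysis splits glucose into pyruvate and yields ATP without oxygen, and cells that rely on it export the surplus carbon as lactate. When oxygen is short, the prolyl hydroxylases that mark hypoxia-inducible factor 1 alpha (HIF-1α, gene Hif1a) for destruction stop working, the protein builds up, and it raises the transcription of glucose transporters, of most glycolytic enzymes and of a wider set of hypoxia genes. Mouse pluripotent cells of the naive state use both glycolysis and respiration, and the epiblast turns more strongly to glycolysis around implantation. Because HIF-1α is governed largely by the stability of the protein, the level of its messenger RNA is not a readout of its activity.

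The 40 genes described here were taken by symbol from a table of 55291 genes counted in 52 poly(A) RNA libraries of cultured mouse stem cells and their aggregates, and all 40 passed the filter on low counts that left 25056 genes to test. They comprise 4 glucose and lactate transporters, 11 enzymes and regulators of the hexose phase of glycolysis, 6 enzymes of the triose phase, 4 genes that decide the fate of pyruvate, 3 genes of oxygen sensing and 12 further hypoxia targets. The rule that chose them uses gene symbols alone, but they were chosen with earlier results of these data known. Together they took from 0.967% to 3.69% of a library's counts.

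All cells carried a genotype labelled WT, and no label names a deletion. The line names given below hold the terms mClover3 and td, so the WT label does not show that the cells lack reporter transgenes. Extended pluripotent stem cells (EPSCs) of a single line, mc6-1/Mu-mClover3-10#, were treated with totipotency medium for 2 days (S1, 2 libraries), for 25 passages (P25, 2 libraries) or for 38 passages (P38, 2 libraries), and were set against EPSCs kept in LCDM medium (4 libraries). Mouse embryonic stem cells (mESCs) of the line 2i-0606-td-ES were treated for 2 days with the same medium (mESC-S1, 2 libraries) and set against mESCs kept in 2i/L medium (2 libraries). EPSCs also received the GSK3 inhibitor CHIR-99021 for 2 days, alone or together with the HIV integrase inhibitor Elvitegravir, the MEK inhibitor PD0325901 or the retinoic acid receptor agonist CD1530 (2 libraries each). Aggregates of S1 cells spent 1 day in a medium named 4C-64C to give S2, a further day in it to give S3, and at S5 cells of stage S4 had spent 3 days in peri-implantation medium on Aggrewell plates (2 libraries each, with S4 not analysed here). At S2 and S3 other libraries lacked 8Br-cAMP, Birabresib, CHIR-99021 or CD1530, and at S5 they lacked Activin A, BMP4, FGF4 or XAV 939 (2 libraries per omission). Every aggregate thus descends from 1 EPSC line that had been through the totipotency medium, and the labels do not say which passage of S1 cells was aggregated.

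Libraries held from 16.6 to 108 M counts. Hif1a was at 0 counts throughout the 12 libraries that carry the longer form of sample title, namely S1, the CHIR-99021 groups and EPSC libraries 1 and 2, so S1 and the CHIR-99021 groups were compared with EPSC libraries 1 and 2, and P25 and P38 with EPSC libraries 3 and 4. Other genes of the table also had no count in those 12 libraries. Such genes were not judged in the lists, but they remain in the shares of all tested genes given beside comparisons that use these libraries. Differences between 2 changes span both sets, and the 4 EPSC libraries were pooled as an alternative. Markers of pluripotency summed to 304 and 334 CPM in S1 libraries, to 2170 and 2180 CPM in P25 libraries and to between 2720 and 4520 CPM in EPSC libraries, while markers of cells like those of the 2-cell embryo summed to 1250 and 1310 CPM in S1, to 234 and 248 CPM in P25 and to at most 0.16 CPM in EPSCs. No label says whether a group's libraries were grown as separate cultures, so a p-value here measures the spread between libraries, which may be technical. CPM, the usual count rate, relates a gene's counts to the library's total after scaling by trimmed mean of M values (TMM), and does not account for gene length. A gene is said to have risen or fallen where edgeR's quasi-likelihood test, adjusted by Benjamini-Hochberg over all 25056 genes, gave an adjusted p below 0.05 and the log2 fold change was 1 or more in size, and errors of log2 fold changes are standard errors.

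HIF-1 binds the core letters ACGTG or GCGTG, and the 250 bases before the transcription start of 38 of the 40 genes are held in the RefSeq promoter table (build GRCm38.p6). Searched on both strands, 35 of these 38 genes (92.1%) held at least 1 core, against 54.5% of the 15049 tested genes in the table and 41.5% of all 27025 genes in it. ACGTG alone was present in 24 genes (63.2%), against 22.7% of tested genes and 18.5% of all genes. Genes with several starts have several windows, and per window the share with either core was 79.7% for these genes, 49.5% for tested genes and 38.6% for all. The windows of the 40 genes were also richer in G and C, with a median of 62.8% against 58% in tested genes and 52.4% in all, and the part of base composition in the share was not tested. A match is only a run of letters, and a palindromic CACGTG is counted on each strand. Of the following 5 windows, those of Slc16a3, Ldha, Pgk1 and Bnip3 belong to genes that fell in S2 against P25 and rose in S5 against S3, whereas Ldhb rose in the first comparison and did not pass in the second. These 5 were picked after their values were seen. Cores on either strand are in capitals, and each sequence is the gene's sense strand.
Slc16a3, chr11:120948817-120949066, plus strand: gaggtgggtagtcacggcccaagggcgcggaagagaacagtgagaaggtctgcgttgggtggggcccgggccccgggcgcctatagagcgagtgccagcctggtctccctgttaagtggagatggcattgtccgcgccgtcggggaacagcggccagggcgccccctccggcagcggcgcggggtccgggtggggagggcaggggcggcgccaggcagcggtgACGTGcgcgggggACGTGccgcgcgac
Ldha, chr7:46845554-46845803, plus strand: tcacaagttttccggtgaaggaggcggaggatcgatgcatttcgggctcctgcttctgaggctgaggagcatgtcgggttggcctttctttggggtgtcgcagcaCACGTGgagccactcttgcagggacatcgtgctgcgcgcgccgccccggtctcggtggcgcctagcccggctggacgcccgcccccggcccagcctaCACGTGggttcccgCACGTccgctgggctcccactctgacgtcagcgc
Pgk1, chrX:106186850-106187099, plus strand: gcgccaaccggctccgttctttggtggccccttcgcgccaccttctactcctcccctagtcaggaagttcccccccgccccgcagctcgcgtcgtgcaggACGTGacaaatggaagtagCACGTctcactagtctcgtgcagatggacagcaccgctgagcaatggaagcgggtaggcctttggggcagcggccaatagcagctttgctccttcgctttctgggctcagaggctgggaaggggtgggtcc
Bnip3, chr7:138909507-138909756, minus strand: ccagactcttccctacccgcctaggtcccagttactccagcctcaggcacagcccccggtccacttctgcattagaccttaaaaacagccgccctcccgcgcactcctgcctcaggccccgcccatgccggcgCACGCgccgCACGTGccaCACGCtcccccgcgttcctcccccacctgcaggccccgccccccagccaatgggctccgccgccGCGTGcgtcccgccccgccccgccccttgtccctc
Ldhb, chr6:142507958-142508207, minus strand: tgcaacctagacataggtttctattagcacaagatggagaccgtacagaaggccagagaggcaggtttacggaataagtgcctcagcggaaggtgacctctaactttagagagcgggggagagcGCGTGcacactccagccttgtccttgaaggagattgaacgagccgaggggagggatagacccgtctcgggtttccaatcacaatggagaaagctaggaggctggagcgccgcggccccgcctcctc
Ldha has 2 windows, of which the one printed held 5 matches to ACGTG and the other held 1 GCGTG and no ACGTG. The windows of Slc16a3 and Pgk1 held 2 of ACGTG each, that of Bnip3 held 2 with 3 of GCGTG, and that of Ldhb held a single GCGTG and no ACGTG. The genes with no core in any window were Gpi1, Tpi1 and Eno2, and all of them rose in S5 against S3, while the window of Hif1a held 3 of ACGTG and its messenger RNA did not pass there.

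**Figure D1:**
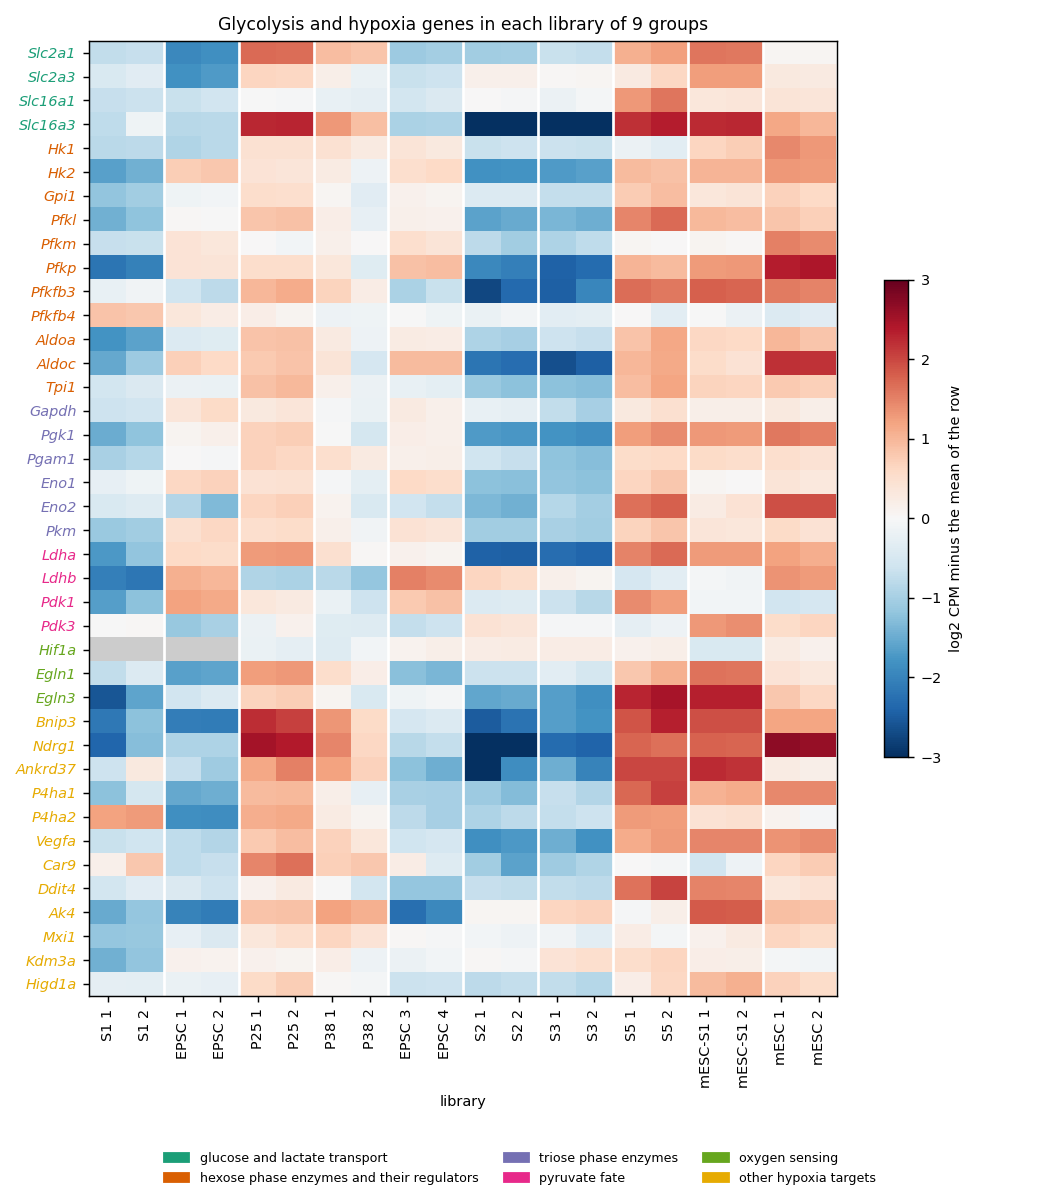
Heatmap of the 40 genes (down, in order of role) in the libraries of S1 and EPSC (1 and 2), P25, P38 and EPSC (3 and 4), S2, S3, S5, mESC-S1 and mESC (across), with gene names coloured by role. Colour is log2 CPM minus the gene's mean over the libraries shown, and grey marks Hif1a where it had no count. Most enzymes and hypoxia targets were low in S1, S2 and S3 libraries, while Ldhb had its highest levels in EPSC and mESC libraries.

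After 2 days in totipotency medium 9 enzymes of glycolysis were lower and the glucose transporters Slc2a1 and Slc2a3 were higher, the transporters only against EPSC libraries 1 and 2 and not against all 4 EPSC libraries pooled. In S1 cells against EPSC libraries 1 and 2, 6 of the 39 genes that could be judged rose (18.7% of all tested genes did) and 14 fell (9.16% did). None of the 17 enzymes and regulators of the hexose and triose phases rose and 9 fell, whereas 2 of the 4 transporters rose and none fell. The median log2 fold change was −0.31 over the 39 genes and 0.00 over all genes tested. In bulk RNA, fewer cells of a type and less RNA per cell cannot be told apart, here or in any later comparison.

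Slc2a1 encodes GLUT1, the basal glucose transporter and a HIF-1 target, and had 352 and 364 CPM in S1 libraries, against 153 and 164 CPM in EPSC libraries 1 and 2. Slc2a3, the high-affinity transporter GLUT3, had 1996 and 2144 CPM in S1 and 776 and 842 CPM in those EPSCs. The S1 libraries were above both of these EPSC libraries for each transporter, with log2 fold changes of 1.18 ± 0.10 for Slc2a1 (adjusted p = 1.62e-12 in edgeR's quasi-likelihood test) and 1.36 ± 0.11 for Slc2a3 (adjusted p = 8.53e-13). EPSC libraries 3 and 4 had 275 and 290 CPM of Slc2a1 and 1716 and 1785 CPM of Slc2a3, close to S1, and with all 4 EPSC libraries pooled the log2 fold changes were 0.70 and 0.69, which no longer passed. The lactate exporters did not pass: Slc16a1 (MCT1) had 128 and 133 CPM in S1 and 130 and 139 CPM in EPSCs, and Slc16a3 (MCT4) had 62.9 and 97.6 CPM in S1 and 60.3 and 60.5 CPM in EPSCs.

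Among the enzymes, Hk2, the inducible hexokinase that traps glucose in the cell, had 105 and 119 CPM in S1, against 539 and 568 CPM in EPSCs, a log2 fold change of −2.30 ± 0.14 (adjusted p = 1.54e-16 in edgeR's quasi-likelihood test). The constitutive Hk1 had 64.8 and 65.4 CPM in S1 and 60.2 and 64.4 CPM in EPSCs and did not pass. All 3 phosphofructokinase subunits, the enzymes of the committed step, fell, with log2 fold changes of −2.51 for Pfkp, −1.34 for Pfkl and −1.06 for Pfkm. The muscle and brain aldolases fell as well (−1.32 for Aldoa and −1.96 for Aldoc). Without EPSC library 1 the value for Pfkm no longer passed.

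In the triose phase Pgk1, phosphoglycerate kinase and the first enzyme to return ATP, had 317 and 388 CPM in S1 and 948 and 993 CPM in EPSCs, and its log2 fold change was −1.46 ± 0.12. Pkm, pyruvate kinase, had 1303 and 1371 CPM in S1 and 3962 and 4369 CPM in EPSCs (−1.64 ± 0.16 on the log2 scale). Gapdh fell by 1.06, a call lost without EPSC library 2 and with the 4 EPSC libraries pooled (−0.94). Gapdh, Eno1, Aldoa, Pgam1, Tpi1, Pgk1, Pkm and Ldha have many processed pseudogenes in the mouse, and since the sources used here do not give the treatment of reads that map to several places, their absolute levels are uncertain.

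Ldhb and Pdk1, which act on the fate of pyruvate, had the largest falls among the 39 genes. Ldhb, the heart form of lactate dehydrogenase, had 28.2 and 26.0 CPM in S1, against 245 and 233 CPM in EPSCs, a log2 fold change of −3.14 ± 0.11 (adjusted p = 2.42e-23 in edgeR's quasi-likelihood test). Pdk1, a HIF-1 target whose kinase closes pyruvate dehydrogenase, had 47.4 and 63.1 CPM in S1 and 343 and 327 CPM in EPSCs (−2.60 ± 0.12). Ldha, the muscle form that makes lactate and a HIF-1 target, had 240 and 347 CPM in S1 and 1187 and 1156 CPM in EPSCs (−2.0 ± 0.13). S1 and EPSC libraries did not overlap for any of them, and neither did EPSC libraries 3 and 4 overlap with S1. Pdk3, another pyruvate dehydrogenase kinase, rose instead, with 46.0 and 47.7 CPM in S1 and 21.1 and 23.7 CPM in EPSCs, but passed no more with the 4 EPSC libraries pooled (0.86).

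Hypoxia targets outside glycolysis gave no common direction after 2 days. P4ha2, a collagen prolyl hydroxylase subunit, had 104 and 110 CPM in S1 and 12.5 CPM in each of the 2 EPSC libraries, the largest rise among the 40 genes (3.10 ± 0.11 on the log2 scale, adjusted p = 3.75e-23 in edgeR's quasi-likelihood test). Kdm3a, a histone demethylase, had 52.7 and 62.8 CPM in S1 and 155 and 154 CPM in EPSCs and fell by 1.42. Of the sensors, Egln1 (PHD2), the main hydroxylase that marks HIF-1α, rose by 1.04, and Egln3 (PHD3) fell by 1.51. Egln1 stood at 0.86 without S1 library 2 and at 0.88 with the 4 EPSC libraries pooled, both short of the fold asked. Bnip3, a mitophagy receptor, had 7.61 and 14.3 CPM in S1 and 7.99 and 7.78 CPM in EPSCs, and Vegfa, the angiogenic growth factor, 47.5 and 50.5 CPM in S1 and 44.9 and 41.2 CPM in EPSCs; neither passed. Car9, carbonic anhydrase 9, rose by 1.23 at a level under 1.5 CPM in all 4 libraries, and lost the call without EPSC library 1, EPSC library 2 or S1 library 2.

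Among genes next to this set, 6 of 12 genes of pyruvate entry into mitochondria fell in S1, and Mpc2 of the mitochondrial pyruvate carrier was the 1 that rose. Those that fell included Pdhb (−1.92), Dlat (−1.29) and Pdha1 (−1.26), all subunits of pyruvate dehydrogenase. Epas1, which encodes HIF-2α, had a mean of 7.07 CPM in S1 and 161 CPM in EPSCs (−4.51 on the log2 scale). Of 22 other published hypoxia targets that could be judged, 6 rose and 4 fell. Over the same comparison, markers of trophectoderm summed to 1210 and 919 CPM in S1 and 47.0 and 49.5 CPM in EPSCs and those of the integrated stress response to 958 and 878 CPM in S1 and 2040 and 2020 CPM in EPSCs, and their part in these values was not tested.

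Long culture in the same medium gave another pattern. In P25 cells against EPSC libraries 3 and 4, 18 of the 40 genes rose (13.2% of all tested genes did) and 1 fell (5.5% did), with a median log2 fold change of 0.68 against 0.02 over all genes. Of the 12 hypoxia targets outside glycolysis 10 rose, as did 3 of the 4 transporters, while 3 of the 17 enzymes of glycolysis rose and none fell. In P38 cells 10 genes rose (11.8% of all genes) and 2 fell (6.01%), and all 10 had also risen in P25. P25 and P38 were set against the same EPSC libraries.

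Slc2a1 had 1884 and 1881 CPM in P25 libraries and 1118 and 1046 CPM in P38 libraries, against 275 and 290 CPM in EPSC libraries 3 and 4. Its log2 fold change was 2.74 ± 0.11 in P25 (adjusted p = 9.22e-22 in edgeR's quasi-likelihood test) and 1.94 ± 0.10 in P38. Slc2a3 had 4260 and 4183 CPM in P25, 3066 and 2384 CPM in P38 and 1716 and 1785 CPM in EPSCs, and rose in P25 (1.27 ± 0.11) but did not pass in P38 (0.64 ± 0.11). Slc16a3, the lactate exporter of highly glycolytic cells, had 513 and 523 CPM in P25, 264 and 199 CPM in P38 and 54.9 and 56.2 CPM in EPSCs (3.22 ± 0.29 in P25 and 2.06 ± 0.28 in P38). For each transporter every long-cultured library lay above both EPSC libraries.

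The hypoxia targets rose with them. Ndrg1, a stress-responsive gene, had 205 and 189 CPM in P25, 100.1 and 55.8 CPM in P38 and 20.5 and 22.1 CPM in EPSCs, with a log2 fold change of 3.21 ± 0.22 in P25 (adjusted p = 8.53e-15 in edgeR's quasi-likelihood test) and 1.87 ± 0.21 in P38. Ak4, a mitochondrial adenylate kinase, had 332 and 337 CPM in P25, 423 and 385 CPM in P38 and 38.1 and 48.3 CPM in EPSCs (2.95 ± 0.11 in P25). Bnip3 had 154 and 139.7 CPM in P25, 84.4 and 50.1 CPM in P38 and 23.5 and 25.2 CPM in EPSCs (2.59 ± 0.20 in P25). Egln1 also rose by 2.59 in P25, and so did Ankrd37, by 2.68 at a level of at most 7.14 CPM. A share of 26.4% of the exonic bases of Ankrd37, 22.5% of those of Higd1a and 22.3% of those of Bnip3 also belong to other annotated genes. For Pkm the share was 15.3%. Reads there may have been left out or shared. P4ha2 (2.00), P4ha1 (1.95) and Vegfa (1.41) followed, the last with 130 and 145 CPM in P25, 123 and 96.2 CPM in P38 and 50.2 and 53.3 CPM in EPSCs. Car9 rose by 1.60 at up to 2.60 CPM, and the call was lost without EPSC library 4 (1.33).

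Inside glycolysis the rise was narrow. Ldha had 1918 and 1928 CPM in P25, 1096 and 802 CPM in P38 and 859 and 838 CPM in EPSCs; it rose in P25 (1.18 ± 0.13, or 0.93 with the 4 EPSC libraries pooled, which did not pass) and not in P38 (0.16 ± 0.12). Pfkfb3, which makes the activator of phosphofructokinase, rose by 1.85 in P25 and by 1.26 in P38. Tpi1 (1.17) and Eno2 (1.32) rose in P25. Hk2 had 427 and 418 CPM in P25, 383 and 292 CPM in P38 and 456 and 487 CPM in EPSCs, and Pgk1 had 1444 and 1481 CPM in P25, 884 and 623 CPM in P38 and 1020 and 991 CPM in EPSCs; neither passed the fold asked in P25 or P38. Pdk1 had 189 and 179.6 CPM in P25, 129 and 96.9 CPM in P38 and 255 and 273 CPM in EPSCs, so that its log2 fold change was −0.52 ± 0.11 in P25 and −1.22 ± 0.11 in P38, where it fell. Ldhb fell in both, with 62.2 and 59.9 CPM in P25, 66.3 and 52.4 CPM in P38 and 332 and 312 CPM in EPSCs (−2.40 ± 0.11 and −2.44 ± 0.11). Hif1a itself had 107 and 102 CPM in P25, 94.9 and 116 CPM in P38 and 133 and 139 CPM in EPSCs.

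**Figure D2:**
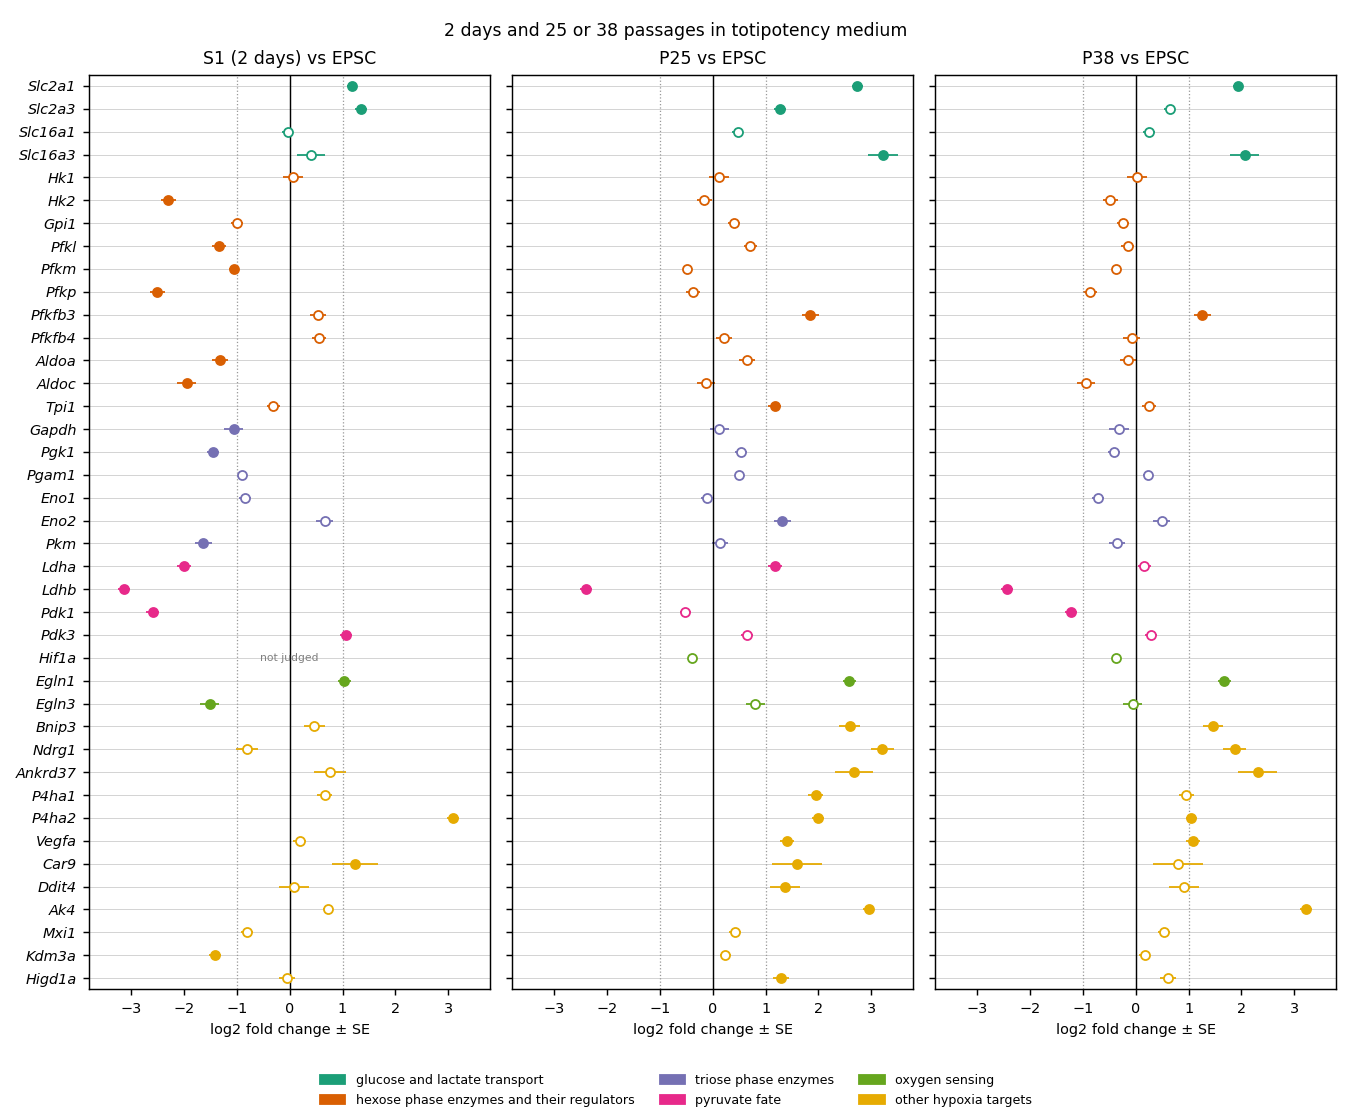
Log2 fold change (points) with its standard error (bars) of each of the 40 genes in S1, P25 and P38 cells, each against the EPSC libraries of its own set (2 libraries per group), with filled points for genes that rose or fell, dotted lines at a fold change of 1 on the log2 scale and colours for roles. Slc16a3, Ndrg1, Ak4, Slc2a1 and Bnip3 lie far to the right in P25 and P38, and Hk2, Pdk1, Pfkp and Ldha lie far to the left in S1.

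Between the passages, P38 cells had 4 of the 40 genes lower than P25 cells (0.307% of all tested genes were) and none higher (0.0319% were; 1 was higher at an unadjusted p below 0.05, and none by DESeq2). The fallen genes were Ndrg1 (−1.34), Slc16a3 (−1.16), Bnip3 (−1.13) and Ldha (−1.02). The log2 fold change was below 0 for 36 of the 40 genes, with a median of −0.61, beside a median near 0 over all genes. The 2 P38 libraries differed from each other more than those of other groups, by a median of 0.36 on the log2 scale over the 40 genes, and without P38 library 2, the lower of the pair for most of them, no gene was called.

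The difference between 25 passages and 2 days was tested directly, as the change of P25 against EPSC libraries 3 and 4 minus the change of S1 against EPSC libraries 1 and 2. The P25 change was higher for 28 of 39 genes (4.76% of all tested genes) and lower for 1 (4.54%), with a median difference of 1.41 against −0.01 over all genes. The difference reached 8 of the 11 hexose phase genes and 4 of the 6 triose phase genes, 10 of the 12 hypoxia targets outside glycolysis and both judged oxygen sensors. Of these, Gapdh (0.93), Higd1a (0.95) and Ddit4 (0.64) no longer passed with the 4 EPSC libraries pooled. Ddit4 also lost its call without some single libraries, and P4ha1 stood at 0.97 without S1 library 1. For P38 the change was higher for 18 genes (5.42%) and lower for 1 (6.2%), and the count was 12 without P38 library 1 in place of 19 in all.

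Ndrg1 differed most, by 4.02 ± 0.30 on the log2 scale, from changes of 3.21 in P25 and −0.81 in S1 (adjusted p = 8.37e-13 in edgeR's quasi-likelihood test). Ldha was the single gene that fell in S1 (−2.0) and rose in P25 (1.18), a difference of 3.18 ± 0.18 (adjusted p = 6.23e-16). Slc16a3 differed by 2.81, Egln3 by 2.32, Ak4 by 2.23, Hk2 by 2.15, Bnip3 and Pfkp by 2.13, Pdk1 by 2.08 and Pgk1 by 2.00. Hk2, Pdk1, Pfkp and Pgk1 had fallen in S1, and none of them rose in P25. Slc2a1 changed further in P25 as well (1.56 ± 0.14), as did Vegfa (1.22 ± 0.19).

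Some members gave no such contrast. Slc2a3 rose in both and differed by −0.09 ± 0.16, though with the 4 EPSC libraries pooled this value was 1.03 and passed. Ldhb fell in both and differed by 0.74 ± 0.15, below the fold asked. P4ha2 was the gene whose P25 change was lower, by −1.10 ± 0.15, and this call was lost without EPSC library 3 (−0.99) and with the 4 EPSC libraries pooled (−0.14). Beside the P25 results, markers of feeder fibroblasts summed to 1290 and 1280 CPM in P25, to 434 and 727 CPM in P38 and to 714 and 699 CPM in EPSC libraries 3 and 4, and their part in the P25 values was not tested.

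**Figure D3:**
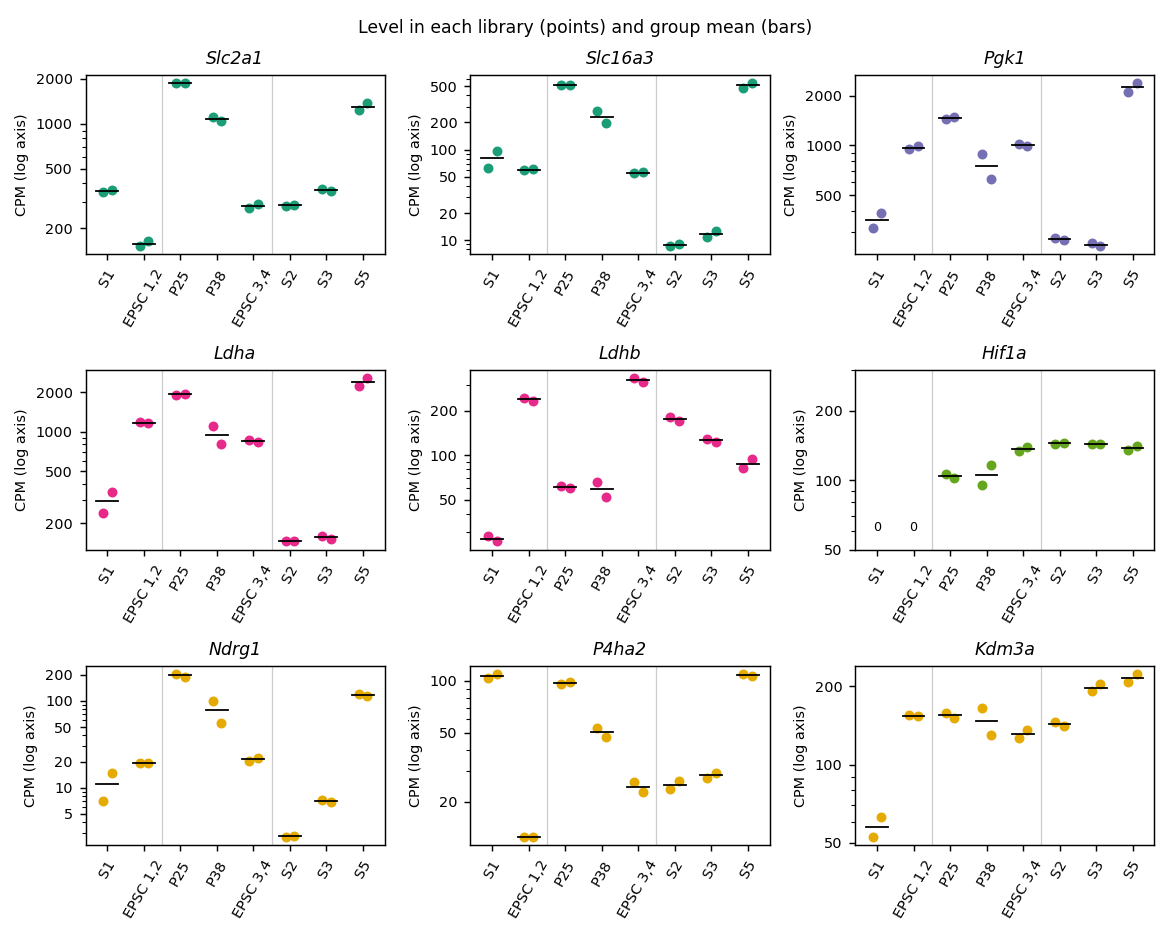
CPM on a log axis of 9 of the genes (Slc2a1, Slc16a3, Pgk1, Ldha, Ldhb, Hif1a, Ndrg1, P4ha2 and Kdm3a), with 1 point per library, a bar at each group mean, the groups along the horizontal axis and a 0 where Hif1a had no count. For Slc16a3, Pgk1, Ldha and Ndrg1 the P25 and S5 points stand above those of S2 and S3, for Ldhb they stand below, and Hif1a keeps between 94.9 and 145 CPM in the groups shown where it was counted.

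The same 2 days of medium were also given to mESCs. In mESC-S1 against mESC libraries 6 of the 40 genes rose (14.2% of all tested genes did) and 6 fell (8.26% did), with a median log2 fold change of 0.02 against 0.04 over all genes. Slc2a1 had 1782 and 1761 CPM in mESC-S1 and 609.6 and 604 CPM in mESCs (1.55 ± 0.10, adjusted p = 2.85e-15 in edgeR's quasi-likelihood test). Slc16a3 had 507 and 511 CPM in mESC-S1 and 237 and 215 CPM in mESCs (1.17 ± 0.26). Ankrd37 (2.00), Egln3 (1.62), Egln1 (1.25) and Ddit4 (1.09), an inhibitor of mTORC1 signalling, rose too. Fallen genes were Aldoc (−1.69), Eno2 (−1.60), Pfkm (−1.41), Ldhb (−1.39), Pfkp (−1.11) and Car9 (−1.06), the last of which lost its call without any 1 of the 4 libraries and had an adjusted p of 0.0534 with the replicate number as a block.

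Ldha, Hk2 and Pdk1, which had fallen in S1, did not pass in mESC-S1. Ldha had 1902 and 1909 CPM in mESC-S1 and 1815 and 1676 CPM in mESCs, Hk2 had 659.9 and 651 CPM in mESC-S1 and 797 and 785 CPM in mESCs, and Pdk1 had 140 and 140 CPM in mESC-S1 and 101 and 105 CPM in mESCs. Slc2a3 had 6483 and 6470.5 CPM in mESC-S1 and 3345 and 3289 CPM in mESCs (0.97), and Bnip3 had 127 and 127 CPM in mESC-S1 and 76.6 and 76.0 CPM in mESCs (0.73). Pgk1 (−0.26), Hif1a (−0.65) and Vegfa (0.07) also stayed short of the fold asked. Over the same 2 days feeder fibroblast markers summed to 1030 and 1020 CPM in mESC-S1 and 2260 and 2150 CPM in mESCs, trophectoderm markers to 327 and 323 CPM in mESC-S1 and 89.7 and 81.4 CPM in mESCs, and stress response markers to 1070 and 1050 CPM in mESC-S1 and 1880 and 1790 CPM in mESCs; their part in these values was not tested. Tested as the change in mESCs minus the change in EPSCs, 14 of 39 genes were higher (8.7% of all tested genes) and 4 were lower (9.97%). By DESeq2 11 were higher and 4 lower. Aldoa, Gapdh and Ddit4 (1.01 each) lost their calls by DESeq2 and in a fit of the compared groups alone. Ankrd37 (1.24) lost its call with the 4 EPSC libraries pooled (1.04). Egln3 differed by 3.14 ± 0.25 (adjusted p = 1e-12 in edgeR's quasi-likelihood test), Pdk1 by 3.05, Ldha by 2.12 and Hk2 by 2.03. Lower were P4ha2 (−2.66), Car9 (−2.29), Eno2 (−2.26) and P4ha1 (−1.02). P4ha1 lost its call without mESC-S1 library 1 (−0.99), without S1 library 2 (−0.62) and with the 4 EPSC libraries pooled (−0.74). Slc2a1, Egln1, Ldhb, Aldoc, Pfkm and Pfkp passed in the same direction in both cell types, and the difference for Slc2a1 was 0.37 ± 0.14. In S1 the calls of Slc2a1 and Egln1 were lost with the 4 EPSC libraries pooled (0.70 and 0.88). The mESCs are another line kept in another medium, and the cell line and the medium cannot be told apart.

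Aggregates of stage S2 had far lower levels of most of these genes than long-cultured cells. In S2 against P25, 26 of the 40 genes were lower (11.4% of all tested genes were) and 1 was higher (4.69% were), with a median of −1.88 against 0.00 over all genes. The fallen genes were 13 of the 17 enzymes and regulators of glycolysis, 2 of 4 transporters, Ldha, 2 of 3 oxygen sensors and 8 of the 12 other hypoxia targets. The mates of a read pair seem to have been counted apart in S2 and once per pair in P25. With the counts of S2 and of the other libraries of that kind divided by 2, 27 genes were called as well. The division leaves CPM almost as it was, so it cannot show how the counting affected single genes.

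Slc16a3 had 8.67 and 9.16 CPM in S2, against 513 and 523 CPM in P25, a log2 fold change of −5.86 ± 0.33 (adjusted p = 6.82e-17 in edgeR's quasi-likelihood test). Ndrg1 had 2.72 and 2.81 CPM in S2 and 205 and 189 CPM in P25 (−6.15 ± 0.26). Bnip3 had 5.93 and 7.15 CPM in S2 and 154 and 139.7 CPM in P25 (−4.49 ± 0.22). For each of these exporters and stress genes the lower P25 library was more than 10 times the higher S2 library. Among the enzymes, Ldha had 147 and 145 CPM in S2 and 1918 and 1928 CPM in P25 (−3.72 ± 0.14), Pgk1 had 274 and 267 CPM in S2 and 1444 and 1481 CPM in P25 (−2.43 ± 0.12), and Hk2 had 92.2 and 93.7 CPM in S2 and 427 and 418 CPM in P25 (−2.18 ± 0.14). Slc2a1 (−2.72), Vegfa (−2.63) and Pfkfb3 (−3.56) fell in the same comparison.

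Ldhb was again the exception, with 183 and 169 CPM in S2 and 62.2 and 59.9 CPM in P25, and rose by 1.53 ± 0.11 (adjusted p = 3.99e-14 in edgeR's quasi-likelihood test). Slc2a3 had 3047 and 3034 CPM in S2 and 4260 and 4183 CPM in P25, a log2 fold change of −0.47, and Hif1a had 143 and 145 CPM in S2 and 107 and 102 CPM in P25, a log2 fold change of 0.47; Pdk1 had 112 and 114 CPM in S2 and 189 and 179.6 CPM in P25 (−0.71). None of these 3 reached the fold asked. None of the 23 judged other published hypoxia targets rose and 16 fell, among them Lox (−5.29) and Adm (−5.16). Against P38 in place of P25, 27 of the 40 genes were also called, 26 of them shared, while Higd1a lost its call (−0.74). Over the same step feeder fibroblast markers summed to 267 and 257 CPM in S2 and 1290 and 1280 CPM in P25, and trophectoderm markers to 327 and 309 CPM in S2 and 934 and 975 CPM in P25; their part in these falls was not tested.

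Whether S2 lay below EPSCs by more than S1 did was tested as the difference of the 2 changes, S2 against EPSC libraries 3 and 4 minus S1 against EPSC libraries 1 and 2. Of 39 genes 12 had the lower change in S2 (8.2% of all tested genes) and 4 the higher (5.26%). Most of the 12 were hypoxia targets or transporters, P4ha2 and Slc16a3 (−3.05 each), Car9 (−2.48), Bnip3 (−2.36), Ndrg1 (−2.13), Ankrd37 (−1.82), Vegfa (−1.41) and Slc2a1 (−1.16) among them. The glycolysis genes Pfkfb3 (−2.24), Eno2 (−1.41), Aldoc (−1.24) and Hk1 were lower as well. The higher ones were Ldhb (2.26), Kdm3a (1.55), Ak4 (1.42) and Pdk1 (1.37). Among enzymes that had fallen in S1, the difference was −0.04 ± 0.19 for Hk2, −0.39 ± 0.19 for Pfkp, −0.43 ± 0.16 for Pgk1 and −0.54 ± 0.18 for Ldha, none of which passed. Aldoc had fallen in S1 too and was called lower here. Its value was −0.95 with the 4 EPSC libraries pooled and −0.99 without S1 library 2, both short of the fold asked. Eno2 stood at −0.98 with that pooling, also short of it. Hk1 was called lower (−1.05), but with the 4 EPSC libraries pooled the sign turned (0.15). With the same pooling the values for Bnip3 (−0.74, adjusted p = 0.0762 in edgeR's quasi-likelihood test) and Slc2a1 (−0.33, adjusted p = 0.125) no longer passed. Ankrd37 lost its call without S1 library 2 (−1.30), EPSC library 3 (−1.69) or S2 library 1 (−1.28). This difference rests on EPSC pairs of both sets, and S1 and S2 levels were not tested against each other because their libraries belong to different sets. Mates also seem to have been counted apart in S2, S1 and EPSC libraries 1 and 2 but once per pair in EPSC libraries 3 and 4. The part of this in the difference was not tested.

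A day later little had moved. In S3 against S2, 1 of the 40 genes rose (1.9% of all tested genes did) and none fell (3.37% did; 7 were lower at an unadjusted p below 0.05, and none fell by DESeq2). The riser was Ndrg1, with 7.33 and 6.90 CPM in S3 and 2.72 and 2.81 CPM in S2 (1.36 ± 0.25, adjusted p = 0.000151 in edgeR's quasi-likelihood test). Of the large glycolytic genes, Ldha had 161 and 151 CPM in S3 and 147 and 145 CPM in S2, and Pgk1 had 256 and 247 CPM in S3 and 274 and 267 CPM in S2. Slc2a1 had 366 and 354 CPM in S3 and 284 and 287 CPM in S2, Pdk1 had 96.0 and 84.3 CPM in S3 and 112 and 114 CPM in S2, and Ldhb had 129.6 and 122 CPM in S3 and 183 and 169 CPM in S2. None of these 5 reached the fold asked. Slc2a3 (−0.11), Hk2 (0.13), Hif1a (−0.01), Bnip3 (0.63) and Vegfa (0.15) did not either.

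At S5, in peri-implantation medium, the set was high again. In S5 against S3, 29 of the 40 genes rose (14.1% of all tested genes did) and none fell (8.5% did; 2 were lower at an unadjusted p below 0.05, and none fell by DESeq2). The median log2 fold change was 1.89, against 0.00 over all genes. All 6 triose phase enzymes rose, as did 8 of 11 hexose phase genes, 3 of 4 transporters, 2 of 3 oxygen sensors and 8 of the 12 other hypoxia targets, and 24 of the 29 were among the 26 that had been lower in S2 than in P25. Overlaps of called members between 2 comparisons, here and elsewhere, were not counted over all tested genes.

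Slc16a3 had 486 and 550.1 CPM in S5, against 10.8 and 12.5 CPM in S3, a log2 fold change of 5.47 ± 0.32 (adjusted p = 7.45e-17 in edgeR's quasi-likelihood test). The other lactate transporter, Slc16a1, had 510.0 and 634 CPM in S5 and 184 and 199 CPM in S3 (1.58 ± 0.11), and S5 was the only comparison among S1, P25, P38, mESC-S1, S2, S3 and S5 in which it passed. Slc2a1 had 1230 and 1370 CPM in S5 and 366 and 354 CPM in S3 (1.85 ± 0.10). Slc2a3 did not pass, with 3298 and 4227 CPM in S5 and 2793 and 2840 CPM in S3. All S5 values of the 4 transporters were above both S3 values.

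In the pathway itself, Hk2 had 628 and 598 CPM in S5 and 99.1 and 104 CPM in S3 (2.59 ± 0.14), and Pfkfb3 had 73.5 and 69.2 CPM in S5 and 4.22 and 5.96 CPM in S3 (3.81 ± 0.17). The aldolase Aldoc (3.61) and the phosphofructokinases Pfkp (3.35) and Pfkl (3.01) rose with them, while Pfkm (0.86 ± 0.09) and Hk1 (0.40 ± 0.19) did not pass. Pgk1 had 2116 and 2396 CPM in S5 and 256 and 247 CPM in S3 (3.16 ± 0.12). Eno2, the neuronal enolase, had 62.1 and 68.6 CPM in S5 and 11.0 and 9.87 CPM in S3 (2.64), and Eno1, the general form, had 3802 and 4215 CPM in S5 and 1071 and 1025 CPM in S3 (1.94).

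At the end of the pathway, Ldha had 2225 and 2556 CPM in S5 and 161 and 151 CPM in S3 (3.94 ± 0.14, adjusted p = 3.87e-23 in edgeR's quasi-likelihood test). Pdk1 had 398 and 354 CPM in S5 and 96.0 and 84.3 CPM in S3 (2.06 ± 0.12). Ldhb had 81.6 and 93.7 CPM in S5 and 129.6 and 122 CPM in S3 (−0.52), and Pdk3 had 38.8 and 41.7 CPM in S5 and 45.7 and 45.6 CPM in S3 (−0.18); neither passed. The kinases of pyruvate dehydrogenase and the dehydrogenases of lactate thus each had 1 member that rose at S5 and 1 that did not.

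Among the sensors and targets, Egln3 had 206 and 235 CPM in S5 and 13.6 and 12.0 CPM in S3 (4.11 ± 0.20). Ndrg1 had 121 and 114 CPM in S5 and 7.33 and 6.90 CPM in S3 (4.05), Bnip3 had 124 and 169 CPM in S5 and 10.6 and 9.67 CPM in S3 (3.86), and Vegfa had 163 and 184 CPM in S5 and 27.5 and 21.7 CPM in S3 (2.82). Hif1a messenger RNA had 135 and 140.0 CPM in S5 and 143 and 144 CPM in S3, a log2 fold change of −0.06 ± 0.09 (adjusted p = 0.622 in edgeR's quasi-likelihood test). Kdm3a (0.12), Mxi1 (0.30), Ak4 (−0.61) and Car9 (0.96), all published HIF-1 targets, did not pass. Higd1a rose by 1.22, or by 0.99 without S5 library 2, short of the fold asked. Of 23 other published hypoxia targets 16 rose and none fell, led by Adm (adrenomedullin), with a mean of 79.8 CPM in S5 and 0.25 CPM in S3. Hif3a, a further HIF alpha gene, rose by 2.22 and Epas1 by 1.26.

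**Figure D4:**
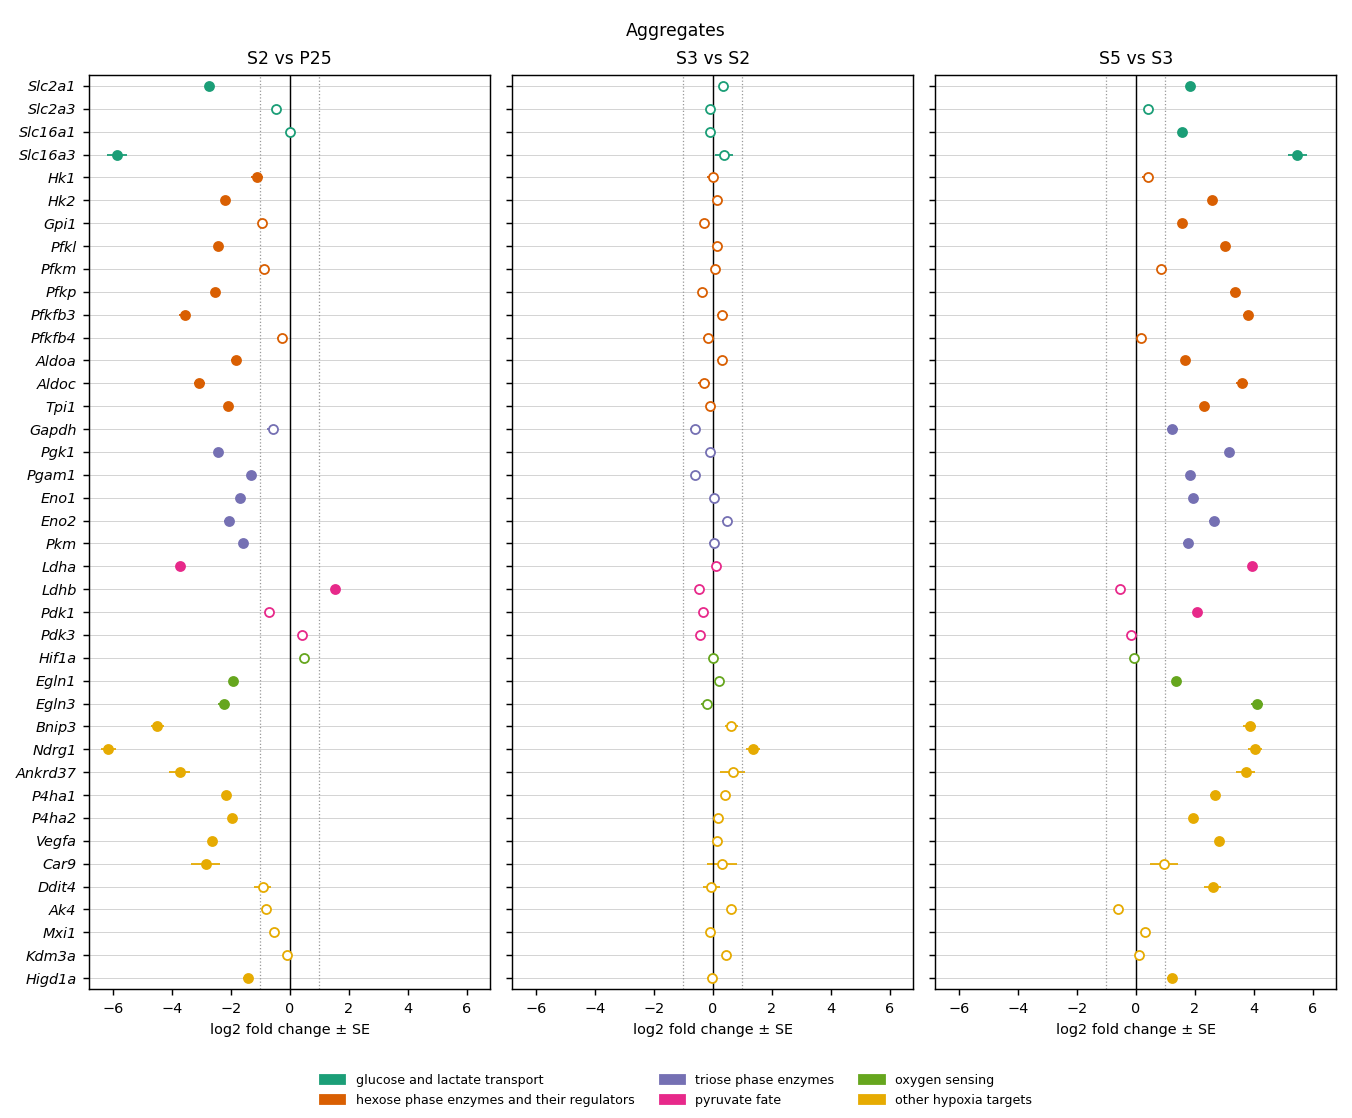
Log2 fold change (points) with its standard error (bars) of each of the 40 genes in S2 against P25, S3 against S2 and S5 against S3 (2 libraries per group), with filled points for genes that rose or fell and colours for roles. The S2 points lie mostly left of 0, with Ldhb at 1.53 on the right, the S3 points crowd around 0 with Ndrg1 alone filled, and the S5 points lie mostly right of 0.

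Markers of primitive and visceral endoderm rose over the same step, summing to 2350 and 3390 CPM in S5 libraries and 120.0 and 126 CPM in S3 libraries, and pluripotency markers summed to 1610 and 1480 CPM in S5 and 2330 and 2320 CPM in S3; their part in the S5 values was not tested. Taking all 10 libraries of S5 and its omissions beside all 20 of S2, S3 and their omissions, 30 of the 40 genes had every value of the 10 above every value of the 20. The same count was not made over all tested genes, so how far it is particular to these genes is not known. Ldha ran from 2230 to 2880 CPM in the 10 and from 104 to 362 CPM in the 20, and Slc16a3 from 486 to 683 CPM and from 8.67 to 30.2 CPM. The 10 genes with overlap were Slc2a3, Hk1, Pfkfb4, Ldhb, Pdk3, Hif1a, Car9, Ak4, Mxi1 and Kdm3a.

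The members not yet given by library moved less far or in fewer comparisons. Gpi1, glucose-6-phosphate isomerase, had 448 and 495 CPM in S1 and 928 and 957 CPM in EPSC libraries 1 and 2, and its log2 fold change of −1.0 lay just short of the fold asked. It rose at S5, with 1706 and 1916 CPM in S5 and 616 and 614 CPM in S3 (1.56). Pgam1, phosphoglycerate mutase, had 526 and 544 CPM in S5 and 154 and 147 CPM in S3 (1.83), and in S1 its change was −0.90. Tpi1, triosephosphate isomerase, had 802 and 855 CPM in P25 and 377 and 358 CPM in EPSC libraries 3 and 4. Both isomerases and the mutase were thus lower in S3 than in S5 with no overlap of libraries. Ddit4 had 617 and 814 CPM in S5 and 119 and 116 CPM in S3 (2.60), P4ha1 had 317 and 399.6 CPM in S5 and 59.6 and 52.7 CPM in S3 (2.67), and Higd1a, a mitochondrial hypoxia gene, had 58.0 and 64.8 CPM in P25 and 25.0 and 25.2 CPM in EPSCs (1.29). Pfkfb4, a relative of Pfkfb3, and Mxi1, a repressor of the MYC network, passed in none of the S1, P25, P38, mESC-S1, S2, S3 and S5 comparisons. Pfkfb4 had 13.3 and 12.9 CPM in S1 and 9.32 and 8.52 CPM in EPSCs (0.55), and Mxi1 had 13.7 and 14.0 CPM in S1 and 25.8 and 22.7 CPM in EPSCs (−0.81).

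The balance between paired isoforms moved with these stages. Per kilobase of exon, Ldhb made up 71.7% ± 0.92 of lactate dehydrogenase transcripts in S2 (SD, n = 2 in each group), 63% ± 0.14 in S3, 44.5% ± 0.64 in EPSC libraries 3 and 4, and 30.1% ± 0.38 in EPSC libraries 1 and 2. It made up 16.8% ± 4.4 in S1, 11.7% ± 0.57 in P38, 7.18% ± 0.0044 in S5 and 6.28% ± 0.18 in P25. In mESC-S1 the share was 10.9% and in mESCs 25.9%. Ldha and Ldhb subunits form the same tetrameric enzyme in different mixtures. Likewise Slc16a3 made up 3.49% of the 2 lactate transporters per kilobase in S2, 4.82% in S3, 43.1% in S5 and 67.9% in P25, against 23.9% in EPSC libraries 3 and 4. Hk1 made up 28.9% of the 2 hexokinases in S1 and 7.3% in EPSC libraries 1 and 2, and 9.78% in S5 and 33.2% in S3. These shares are descriptions with no test, and the counting treatment of reads from pseudogenes of Ldha bears on them. They also rest on exons merged over all annotated transcripts, 3.31 kb for Ldha and 1.57 kb for Ldhb, and the length of the transcripts present was not measured. Before division by length, S3 had a mean of 156 CPM of Ldha and 126 CPM of Ldhb.

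Single omissions from the aggregate media moved between 0 and 10 members, the most at S3 without CHIR-99021. At S2, leaving out CHIR-99021 raised 4 genes (2.86% of all tested genes rose) and lowered none (2.22%; 8 were lower at an unadjusted p below 0.05, and none fell by DESeq2). Slc16a3 had 25.1 and 30.2 CPM without CHIR-99021 and 8.67 and 9.16 CPM in full S2 medium, and Hk2 had 286 and 282 CPM without it and 92.2 and 93.7 CPM with it. The log2 fold changes were 1.63 ± 0.29 for Slc16a3 (adjusted p = 7.05e-05 in edgeR's quasi-likelihood test) and 1.61 ± 0.14 for Hk2 (adjusted p = 2.69e-11). Pfkfb3 (1.48) and Ndrg1 (1.12) were the other two. Trophectoderm markers summed to 710.0 and 744 CPM without CHIR-99021 and 327 and 309 CPM with it, and stress response markers to 887 and 933 CPM without it and 2030 and 1910 CPM with it; their part in these values was not tested.

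At S3 the same omission raised 8 genes (5.04% of all tested genes) and lowered 2 (4.11%), and all 4 of the S2 genes were among the 8. Ndrg1 had 24.9 and 28.0 CPM without CHIR-99021 and 7.33 and 6.90 CPM in full S3 medium (1.90 ± 0.22), Vegfa had 77.4 and 70.8 CPM without it and 27.5 and 21.7 CPM with it (1.59 ± 0.14), and Pfkp had 119.5 and 117 CPM without it and 38.7 and 42.0 CPM with it (1.55 ± 0.14). Pdk1 fell, with 37.2 and 35.4 CPM without CHIR-99021 and 96.0 and 84.3 CPM with it (−1.31 ± 0.11), and so did Eno2 (−1.06). Without S3 library 1, 7 in place of 10 genes were called. Endoderm markers summed to 521 and 542 CPM without CHIR-99021 and 120.0 and 126 CPM with it, trophectoderm markers to 1160 and 1150 CPM without it and 501 and 470.0 CPM with it, and stress response markers to 989 and 1010 CPM without it and 1790 and 1740 CPM with it; their part in these values was not tested. The highest of these values, such as 28.0 CPM of Ndrg1, stayed below every S5 library, where Ndrg1 had 66.0 CPM or more.

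The other S3 omissions moved 1 to 4 members each. Without CD1530 4 rose (1.97%) and none fell (3.82%; 5 were lower at an unadjusted p below 0.05, and none fell by DESeq2), namely Pfkp (1.34), Ldha (1.16, with 337 and 362 CPM against 161 and 151 CPM in full S3 medium), Pfkfb3 (1.14, or 0.90 without S3 library 1, which did not pass) and Egln3 (1.09). Trophectoderm markers summed to 904 and 944 CPM without CD1530 and 501 and 470.0 CPM with it, and their part in these values was not tested. Without 8Br-cAMP, a stable analogue of cyclic AMP, Slc16a3 (1.16) and Eno1 (1.05) rose (2.83%) and Ndrg1 fell by 1.36 (3.8%). Without Birabresib, an inhibitor of BET bromodomain proteins, Aldoc rose by 1.21, with 9.64 and 9.71 CPM against 3.87 and 4.47 CPM in full S3 medium (5.75%), and none fell (0.459%; 13 were lower at an unadjusted p below 0.05, and none fell by DESeq2).

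At S2 the omission of 8Br-cAMP lowered Ndrg1 alone (1.28% of all tested genes fell) and raised none (0.643% rose; 4 members were higher at an unadjusted p below 0.05, and none rose by DESeq2). Ndrg1 had 1.33 and 0.883 CPM without it and 2.72 and 2.81 CPM in full S2 medium (−1.38 ± 0.33, adjusted p = 0.00566 in edgeR's quasi-likelihood test), and the call was lost without library 2 of the omission. Ndrg1 was thus lower without 8Br-cAMP at both stages. No member was called by edgeR's quasi-likelihood test without Birabresib (2.98% of all tested genes) or without CD1530 (2.33%), where 24 and 13 differed at an unadjusted p below 0.05 and DESeq2 called 1 and 0.

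At S5, where levels were high, no omission raised a member. Without FGF4 none rose (2.12% of all tested genes did; 2 members were higher at an unadjusted p below 0.05, and none rose by DESeq2) and P4ha1 fell (2.53% did). P4ha1 had 146 and 192 CPM without it and 317 and 399.6 CPM in full S5 medium (−1.08 ± 0.14), and the call was lost without S5 library 2 or library 1 of the omission. Without Activin A (1.12% of all tested genes), BMP4 (0.0559%) or XAV 939 (2.14%) no member was called by edgeR's quasi-likelihood test or DESeq2, with 7, 4 and 13 differing at an unadjusted p below 0.05. The 4 omissions share the 2 full S5 libraries, as do those of S2 and S3 theirs.

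**Figure D5:**
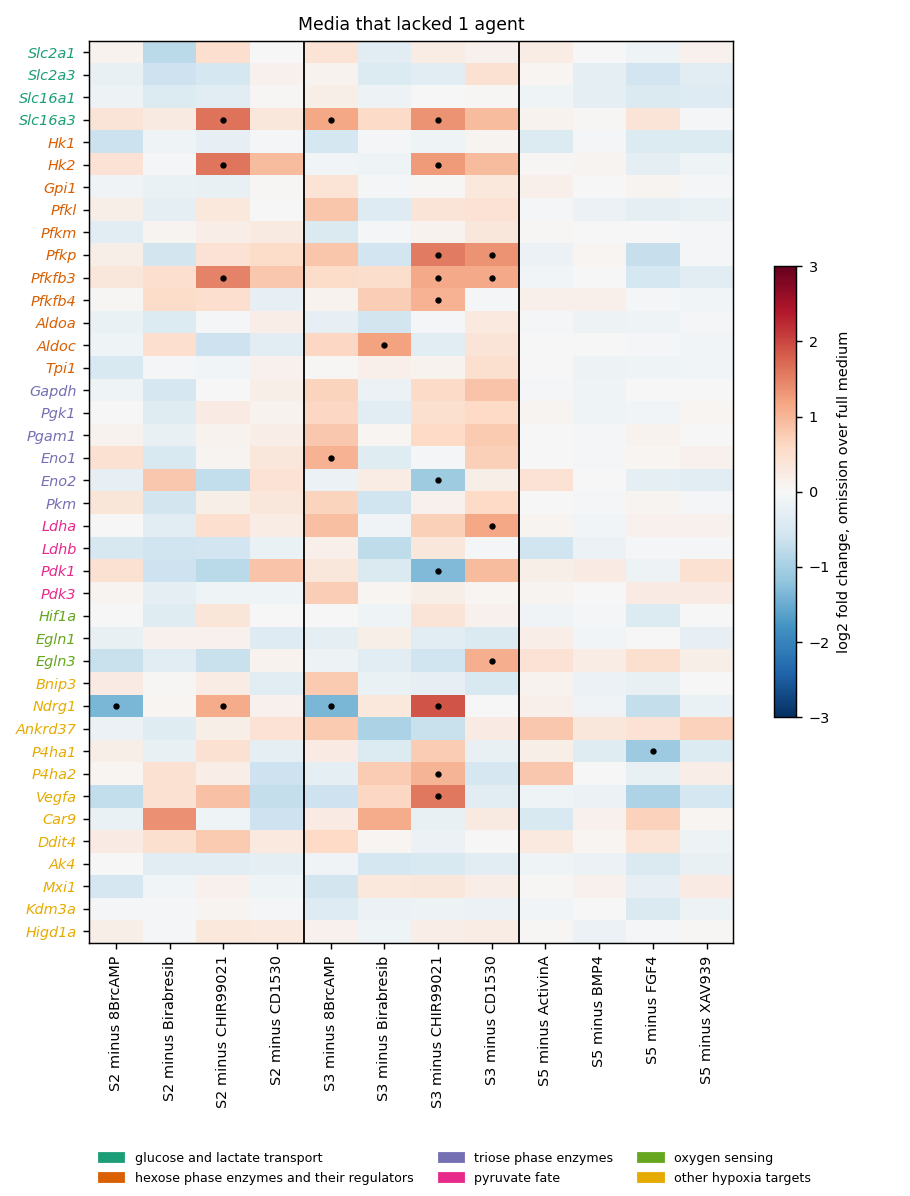
Heatmap of the log2 fold change of each of the 40 genes (down) in 12 omissions at S2, S3 and S5 (across), each against full medium of its stage, with a dot where a gene rose or fell. Dots gather in the columns without CHIR-99021 at S2 (4) and S3 (10), and the S5 columns hold 1 dot, P4ha1 without FGF4.

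In EPSCs, 2 days of CHIR-99021 alone raised 14 of 39 genes (11.7% of all tested genes) and lowered 1 (6.99%). Bnip3 had 59.5 and 66.2 CPM with CHIR-99021 and 7.99 and 7.78 CPM in EPSC libraries 1 and 2 (2.99 ± 0.21, adjusted p = 9.52e-15 in edgeR's quasi-likelihood test). Ankrd37 (3.36), Slc16a3 (2.32), Egln3 (2.28), P4ha1 (2.07), Pdk1 (1.22) and Pgk1 (1.00) rose as well, and Ldhb fell by 1.32. The call for Pgk1 was lost without CHIR-99021 library 1 (0.84), without EPSC library 1 (0.95), with no low-count filter (0.99) and with the 4 EPSC libraries pooled (0.98). Endoderm markers summed to 293 and 272 CPM with CHIR-99021 and 12.3 and 11.5 CPM in EPSC libraries 1 and 2, pluripotency markers to 750.0 and 622 CPM with CHIR-99021 and 2720 and 2890 CPM in EPSCs, and feeder fibroblast markers to 69.1 and 67.3 CPM with CHIR-99021 and 287 and 262 CPM in EPSCs; their part in these values was not tested. The 2 CHIR-99021 libraries lay far apart for some members, such as Slc16a3 with 452 and 149 CPM and Ddit4 with 515 and 177 CPM, and without CHIR-99021 library 1 their values were 1.26 and 0.29.

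Adding CD1530 to CHIR-99021 raised P4ha2 (9.74% of all tested genes rose) and lowered 5 genes (6.91%). Pdk1 had 87.1 and 91.4 CPM with both compounds, against 714 and 845 CPM with CHIR-99021 alone, a log2 fold change of −3.13 ± 0.12 (adjusted p = 1.08e-21 in edgeR's quasi-likelihood test). Egln3 (−2.25), Ankrd37 (−1.55), Ldhb (−1.48) and Pfkfb3 (−1.11) fell with it. Endoderm markers summed to 2530 and 2540 CPM with both compounds and 293 and 272 CPM with CHIR-99021 alone, and their part in these values was not tested. Adding PD0325901 lowered Pdk1 (−1.22), Eno2 (−1.07) and Aldoc (−1.0) and raised none (1.24% of all tested genes fell and 3.27% rose; 2 members were higher at an unadjusted p below 0.05, and none rose by DESeq2). In a fit of the compared groups alone none of these calls held, and those of Eno2 and Aldoc were also lost without CHIR-99021 library 1 (−0.97 and −0.77) or PD0325901 library 2 (−0.79 and −0.80). Adding Elvitegravir changed none by edgeR's quasi-likelihood test (0.00798% of all tested genes changed), nor by DESeq2, with 8 differing at an unadjusted p below 0.05.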

How the data were processed

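The labels' protocols describe oligo-dT capture, fragmentation, random hexamer priming and paired sequencing. The submitters' processing notes name Trimmomatic 0.39, STAR 2.7.10b, featureCounts 2.0.6 and the build mm10. The annotation, the strand setting and how pairs and multi-mapping reads were treated are not stated there. Raw counts per gene, unscaled whole numbers, are what the authors deposited, and columns were matched to samples by title. In 46 libraries mates seem to have been counted apart, since 66.8% to 80.5% of counts from 1 to 10 were even, while the share was 40.7% to 42% in P25, P38 and EPSC libraries 3 and 4.

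Genes were filtered with filterByExpr, scaled by TMM and fitted with 1 mean per group (26, EPSCs being split by set) in 1 model with edgeR 4.0.16 in R 4.3.3. Each comparison was a contrast with a quasi-likelihood test whose p was adjusted over all 25056 genes. Standard errors came from dividing a log2 fold change by the root of its F statistic. The test was tried on simulated data. Alternatives were RLE scaling, no filter, DESeq2 1.42.0, a fit of the compared groups alone, a replicate block, each library left out, pooled EPSCs and adjusted p alone. Per-kilobase shares used exon lengths of GENCODE M21, merged over all transcripts of a gene.

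The members and lists were chosen with earlier results of these data known. All 40 members may be named. In each main comparison up to 8 risen and 8 fallen members are given by log2 fold change, with Slc2a1, Slc2a3, Hk2, Pdk1, Pgk1, Ldha, Ldhb, Hif1a, Bnip3 and Vegfa followed where 2 groups are compared, in an omission or arm up to 4 and 4, and from other lists up to 4 called genes. Members given beyond these numbers, and the choice of which of these to describe, followed their values.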

Additional observations from a re-analysis of the deposited data

Results flagged for a closer look

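The results listed here are differences between 2 responses to the same medium, each tested by edgeR's quasi-likelihood test on the difference itself.

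The change in P25 was higher than the change in S1 for 28 members and lower for 1, with Ldha at a difference of 3.18. The change in P38 was higher than that in S1 for 18 members and lower for 1 (15 and 1 by DESeq2). The change in S2 against EPSC libraries 3 and 4 was higher than that in S1 for 4 members and lower for 12. The change in mESCs was higher than that in EPSCs for 14 members and lower for 4 (11 and 4 by DESeq2). Egln3 had a difference of 3.14 and Car9, at under 1.5 CPM in the libraries concerned, had −2.29. In these comparisons the EPSC pairs, and for mESCs the line and base medium, differ along with the treatment, and this cannot be told apart. For S2 the counting of mates also seems to differ from that in EPSC libraries 3 and 4.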

How the results depend on the processing

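Numbers of members called, out of 39 or 40, are compared here. Without the fold minimum they were 32 for S1 (20 with it), 32 for P25 (19), 26 for P38 (12), 22 for P38 against P25 (4), 32 for the P38 and S1 difference (19), 26 for mESC-S1 (12), 26 for the S2 and S1 difference (16), 12 for S3 against S2 (1) and 31 for CHIR-99021 (15). With the further compounds they were 20 for PD0325901 (3) and 28 for CD1530 (6). For omissions they were 11, 15, 19 and 7 at S2 without 8Br-cAMP, Birabresib, CHIR-99021 and CD1530 (1, 0, 4 and 0), and 23, 18, 23 and 19 at S3 in that order (3, 1, 10 and 4). At S5 they were 2 without Activin A, 11 without FGF4 and 3 without XAV 939 (0, 1 and 0). PD0325901 gave 0 in a fit of the groups compared alone, and the S2 omission of Birabresib 1 with DESeq2. The cause was not tested. With all 4 EPSC libraries pooled, the P25 and S1 difference of Slc2a3 was 1.03 in place of −0.09 and the S2 and S1 difference of Hk1 0.15 in place of −1.05, and the cause was not tested.

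Leaving out 1 library at a time gave 18 to 21 for S1, 18 to 19 for P25, 11 to 14 for P38, 0 to 14 for P38 against P25, 27 to 29 and 12 to 20 for the P25 and P38 differences from S1, 11 for mESC-S1, 27 for S2 against P25, 14 to 18 for the S2 difference, 1 for S3 against S2, 28 to 29 for S5 against S3 and 14 to 18 for the mESC difference. It gave 14 to 17 for CHIR-99021, 0 to 4 for Elvitegravir, 1 to 5 for PD0325901, 6 to 11 for CD1530, and for the omissions 0 to 1, 0, 4 and 0 to 1 at S2, 3, 1, 7 to 10 and 4 to 5 at S3, and 0, 0, 0 to 2 and 0 at S5 (Activin A, BMP4, FGF4, XAV 939). A lone library is assumed to vary like the other groups. RLE scaling moved the median of all genes by at most −0.10 on the log2 scale, in the S2 and S1 difference. Libraries of different groups with the same number correlated by a median of −0.00115 in their deviations, over 325 pairs of groups. The highest value was 0.432 and 2 pairs were above 0.1, so some groups may share more than a number. The replicate block took 1 call each from mESC-S1 (11 in place of 12) and from the mESC and S1 difference (17 in place of 18). It left the other counts as they were. Genes under a few CPM, such as Car9 and Ankrd37, are limited by depth. The P38 alternative to P25 and the mESC difference were added after the data were seen.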
